A study of Mus musculus with 6 samples.

Results

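Day 7 dendritic cell cultures were compared with uncultured bone marrow at 56344 short autosomal regions, read by reduced representation bisulfite sequencing, which samples CpG-rich DNA near restriction sites and counts methylated and unmethylated reads at each cytosine. Regions were runs of 3 or more cytosines on chromosomes 1 to 19, with neighbours at most 100 bp apart and at least 10 reads over the run in each of the 4 samples compared. These regions passed out of 68039 such runs and held 371157 of the 641910 autosomal cytosines in the deposited table. Taken over all chromosomes and all 6 samples, the series held 56834 regions. A median region had 5 cytosines over 105 bp. Reads of a region are sums over its cytosines, so a sequencing read is counted at each cytosine it covers. Of the 56344 regions, 55056 could be tested. The other 1288 had reads of a single kind, with only unmethylated reads in 1282 and only methylated reads in 6.

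The study followed marrow cells of male C57BL/6J mice, as labelled, through culture in medium with Flt3L, supplied as supernatant of a transfected SP2/0 cell line. Day 0 samples were uncultured marrow (replicates 2 and 3), and day 7 samples were labelled as bone-marrow derived dendritic cells (replicates 1 and 4). Samples of day 4, labelled as common myeloid progenitors (replicates 1 and 2), did not enter the tests and are given as an intermediate time. Whether the 2 samples of a day are separate animals or cultures is not stated in the labels, so every p-value reflects sample-to-sample spread that may be technical only.

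DNA methylation in mammals sits mostly on CpG dinucleotides, where Dnmt1 copies it at each cell division, Dnmt3a and Dnmt3b add it, and Tet enzymes oxidise it as a step towards removal. CpG-dense promoters are usually free of it, most other CpG sites carry it, and enhancers often lose it as a lineage matures. Flt3L acts through the receptor Flt3 on marrow progenitors and drives the growth of dendritic cells, the antigen-presenting cells that activate T cells. The libraries came from whole marrow or whole cultures as far as the labels say, so a change in the makeup of the cells and a change of methylation within cells cannot be told apart.

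The kind of sequence behind the CpG-dense regions is shown by 3 promoters, given as the 250 bases before the start in RefSeq (GRCm38.p6), 5′ to 3′ in the gene's direction, with the CpG sites that the deposited table lists in capitals. Their places on mm9, the build of the deposited table, came from matching the spacing of listed cytosines to the CpG sites of each sequence, with no conversion of coordinates. Pou2f1 (Oct-1, a POU domain transcription factor; chromosome 1, minus strand) is shown because it was the only placed promoter with a region at an adjusted p below 0.05. Tet1 (a methylcytosine dioxygenase; chromosome 10, minus strand) is shown for the highest day 7 level among placed methylation enzyme promoters. Batf3 (a transcription factor of conventional dendritic cells; chromosome 1, plus strand) is shown as a dendritic cell promoter at 2.78% or lower in every sample. All 3 were chosen after their values were seen.
Pou2f1: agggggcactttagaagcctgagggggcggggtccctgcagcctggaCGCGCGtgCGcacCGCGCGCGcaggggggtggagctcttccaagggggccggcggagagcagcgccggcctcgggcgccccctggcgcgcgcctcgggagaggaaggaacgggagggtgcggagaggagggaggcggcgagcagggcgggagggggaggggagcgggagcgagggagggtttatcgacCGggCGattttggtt
Tet1: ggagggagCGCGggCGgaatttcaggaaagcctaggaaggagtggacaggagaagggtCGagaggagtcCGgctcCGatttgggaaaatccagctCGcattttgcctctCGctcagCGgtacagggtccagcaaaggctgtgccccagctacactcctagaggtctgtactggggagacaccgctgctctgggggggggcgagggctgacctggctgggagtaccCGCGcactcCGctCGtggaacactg
Batf3: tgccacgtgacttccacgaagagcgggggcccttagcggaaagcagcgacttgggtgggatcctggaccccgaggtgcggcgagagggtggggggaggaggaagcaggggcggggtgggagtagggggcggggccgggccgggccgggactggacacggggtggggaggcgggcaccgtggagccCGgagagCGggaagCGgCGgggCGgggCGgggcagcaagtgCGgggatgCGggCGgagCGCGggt
The capitals mark 10 of the 29 CpG sites printed for Pou2f1, 13 of 15 for Tet1 and 11 of 27 for Batf3. Over all listed sites of the Pou2f1 window, from 167932733 to 167932967, methylated reads made up 0.316% and 0.400% at day 0 and 2.79% and 3.85% at day 7. For the Tet1 window (62350083 to 62350313) the levels were 2.83% and 0.704% at day 0 against 6.38% and 13.3% at day 7, the last from 30 reads. For the Batf3 window (192922228 to 192922334) they were 0.467% and 1.90% against 1.88% and 2.78%, the last from 36 reads.

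The 4 libraries differed in depth and in checks outside the autosomes. Autosomal reads came to 9931324 and 7669829 at day 0 and to 8547410 and 3579195 in day 7 replicates 1 and 4, with median reads per region of 72, 56, 60 and 23. In day 7 replicate 4, 18.6% of autosomal reads lay in the deepest 0.1% of cytosines, against 5.16% to 6.54% in the other 5 samples. Reads per X chromosome cytosine, relative to autosomal cytosines, were 0.650 to 0.688 in the day 0 and day 4 libraries but 1.01 and 1.07 in the day 7 libraries, although all samples are labelled male. Mitochondrial cytosines carried methylated reads at 0.547% (13 of 2375) and 0.490% (8 of 1633) at day 0, and at 2.27% (54 of 2374) and 1.76% (134 of 7603) at day 7. Both day 7 libraries stood apart in these 2 checks, so no comparison of day 7 could be made without them, and the part of either in the results below was not tested.

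Day 7 regions were on average slightly more methylated than those of uncultured marrow, and only a few single regions passed the test. The mean region level, each region counting once, was 46.7% and 45.2% in the day 0 samples (45.9% ± 1.06, SD, n = 2) and 48.8% and 47.9% in the day 7 samples (48.4% ± 0.631, SD, n = 2). The day 4 mean lay between, at 47.5% ± 0.957 (SD, n = 2), with samples at 48.2% and 46.8% that overlapped those of day 7. The difference of 2.45 percentage points exceeded the spread of either group, with an exact permutation p of 0.33 (two-sided), the smallest that 2 samples against 2 can give. Region by region, 38261 of 55056 were higher at day 7, 16729 were lower and 66 were equal, with a median difference of 1.54 points. The share of regions with both day 7 samples above both day 0 samples was 29.7% (16329 regions), and the share with both below was 7.11% (3914 regions).

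A region was called where the edgeR likelihood ratio test gave a Benjamini-Hochberg adjusted p below 0.05 and the group means differed by at least 20 points. There were 17 called regions (0.0309% of those tested), of which 15 were higher at day 7 (0.0272%) and 2 were lower (0.00363%). The edgeR quasi-likelihood test called only 2 of the 17, the low rises on chromosomes 11 and 6 described below, and limma called 0, with 6253 regions at an unadjusted p below 0.05. Without the minimum difference, the likelihood ratio test gave 25 regions an adjusted p below 0.05 (0.0454%), 23 of them higher (0.0418%) and 2 lower (0.00363%). At an unadjusted p below 0.05 the test gave 6013 higher and 648 lower regions, 10.9% and 1.18% of those tested. A difference of at least 20 points without regard to the test occurred in 1242 regions upwards and 344 downwards, so most large differences did not pass. With 1 sample left out, the lone sample of its day was assumed to vary like the pair of the other day. The edgeR test then called 6 regions without day 0 replicate 2, 5 without day 0 replicate 3, 40 without day 7 replicate 1 (23 higher and 17 lower) and 8 without day 7 replicate 4. Of the 17 regions, 5, 4, 6 and 2 remained called in these 4 fits, and 0 remained in all of them, although 16, 14, 16 and 14 still differed by at least 20 points.

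The gain was present at every starting level up to 95%, and was largest in points among partly methylated regions. To keep noise in the starting level out of the change, regions were sorted by one day 0 sample and their change was taken from the other, both ways round. Regions below 5% had a level of 1.37% and 1.2% in the 2 day 0 baselines and 2.66% and 2.51% at day 7, a difference of 1.30 points. Regions of 5 to 20% went from 10.1% and 10.4% to 12.3% and 12.7%, a difference of 2.27 points. In both low classes the day 7 samples stood clear of the baselines by many times the distance between them, and the day 4 samples, at 1.37% and 1.22% in the lowest class, did not.

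Partly methylated regions had the wider gains and also the wider baselines. In the class of 20 to 50%, baselines of 34.7% and 39.7% compared with 40.3% and 41.1% at day 7, a difference of 3.48 points. In the class of 50 to 80%, baselines of 70.5% and 76.2% compared with 78.3% and 76.9%, a difference of 4.25 points, and day 4 replicates 1 and 2 were already at 77.7% and 75.1%. In the class of 80 to 95% the difference was 2.61 points, from 82.8% and 86.0% to 87.9% and 86.0%, and it was 1.69 points without day 7 replicate 1. Regions of 95% or more differed by 0.794 points with overlapping samples (88.2% and 89.8% against 90.9% and 88.7%), and this difference became -0.336 points without day 7 replicate 1. Sorting by the mean of both day 0 samples instead gave -5.51 points in this top class, a sort in which the noise of the class enters the change.

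**Figure D1:**
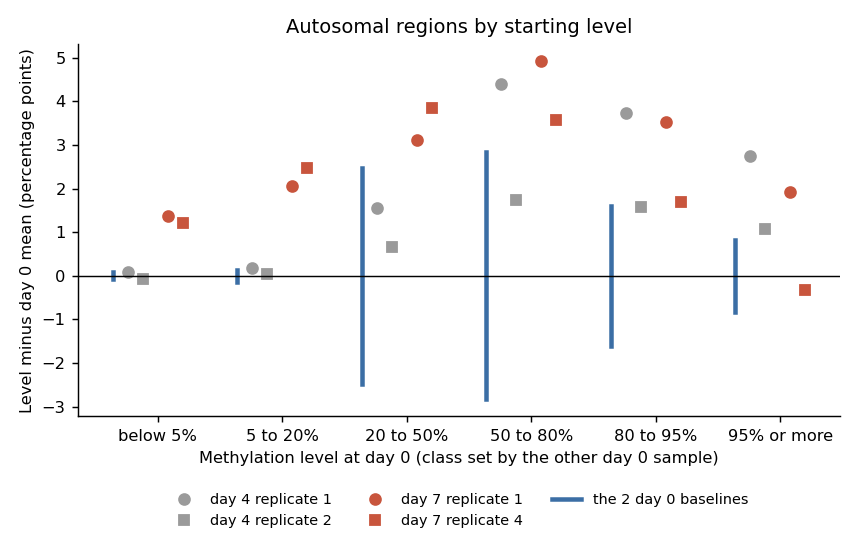
Level of each day 4 and day 7 sample minus the day 0 mean (percentage points, vertical axis) for autosomal regions sorted into 6 classes of day 0 methylation (horizontal axis); blue bars span the 2 day 0 baselines. The day 7 samples lie 1.30 points above day 0 in the lowest class with day 4 near 0, and 4.25 points above in the class of 50 to 80%, where day 4 replicate 1 is also high.

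The 19526 regions below 5% by the mean of both day 0 samples had a median difference of 1.09 points. A gain of at least 5 points occurred in 1141 of them (5.84%) and of at least 10 points in 195 (0.999%), so the shift was made of many small gains. Methylated reads were present in both day 7 samples in 9576 of these regions (49%). In 4275 regions neither day 0 sample had a methylated read, a group whose difference can only be upwards, and their median difference was 1.79 points. The mitochondrial level moved in the same direction and by a similar number of points: from 0.547% and 0.490% to 2.27% and 1.76%, with day 4 samples at 1.17% and 0.664%. Its part in the low-level gain was not tested.

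**Figure D2:**
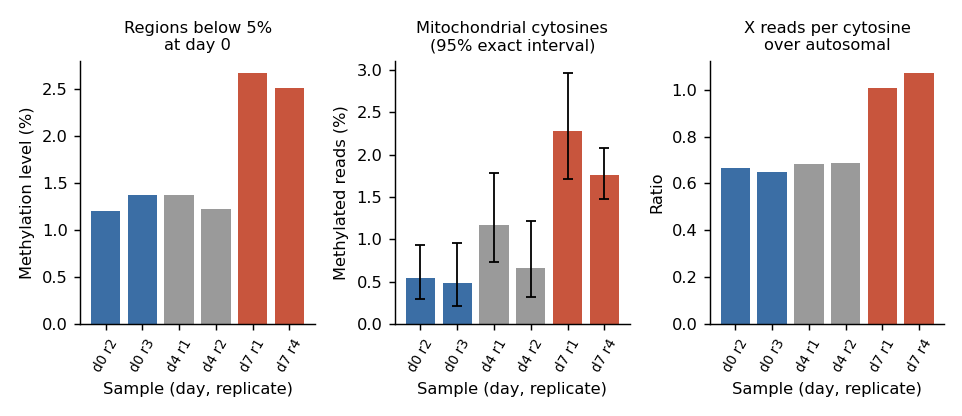
Per sample (d, day; r, replicate): mean methylation level of autosomal regions below 5% at day 0, percent of methylated reads at mitochondrial cytosines with 95% exact binomial intervals, and read depth of X cytosines relative to autosomal ones. All 3 quantities are highest in the 2 day 7 samples; the day 4 samples resemble day 0 in the first and last.

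Most called rises were partly methylated regions of uncultured marrow that were fully methylated at day 7. Of the 15 rises, 11 started at 20% or more, with a median of 67.9% at day 0, 83.6% at day 4 and 100% at day 7. At 8 of them every read of both day 7 samples was methylated. These regions were short: 8 of the 17 called regions had 3 cytosines, and 10 had under 20 reads in some sample. Day 7 replicate 4 gave 10 to 24 reads to each of the 11, so that a full level there rested on few reads. These are sums over cytosines, so fewer separate sequencing reads may lie behind them. Both day 4 samples were above both day 0 samples in 7 of the 11, and day 0 replicate 3 was the lower of the day 0 samples in 8.

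The largest of these rises was at chr4:10618452-10618486, with 3 cytosines. Its levels were 74.1% (20 of 27 reads) and 33.3% (5 of 15) at day 0 and 100% at day 7 (27 of 27 and 15 of 15), a difference of 46.3 points with an edgeR adjusted p of 0.0174. The day 0 samples differed from each other by about as much as the groups did, and both day 4 samples were also at 100%. Without day 0 replicate 3 the difference was 25.9 points and the edgeR adjusted p 0.331.
At chr10:125222597-125222651 (5 cytosines) the levels were 50.6% and 39.4% at day 0 and 81.1% and 100% at day 7, with 53 and 24 reads at day 7 (adjusted p 0.0416). The day 4 samples, at 70.4% and 56.7%, lay between without touching either group. Each of its 5 cytosines was higher at day 7, by 26.2 to 53.0 points.

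Other rises of this kind were at chr6:136296909-136296930 (59.2% to 100%), chr10:113973131-113973273 (60.5% to 97.8%) and chr16:69670261-69670287 (64.8% to 100%), as means of the 2 samples. The region on chromosome 16 had the smallest adjusted p of the 11, at 0.00950, with levels of 54.5% and 75.0% at day 0 and 37 of 37 and 21 of 21 methylated reads at day 7. Another 4 had 3 cytosines each and went to 100% in both day 7 samples: chr10:127219561-127219578 from 67.9%, chr14:14882598-14882622 from 69.6%, chr13:58102704-58102726 from 71.3% and chr9:83531955-83531997 from 71.4%. In the region on chromosome 9 the day 4 samples, at 94.4% and 95.8%, were already near the day 7 level. The last 2 were chr5:4698764-4698920, from 71.5% to 95%, and chr7:16852995-16853148, from 76.5% to 100%. The latter lay between the starts of Bbc3 (41.9 kb away), which encodes the pro-apoptotic protein Puma, and the RNA helicase gene Dhx34 (45.7 kb away), the nearest starts that could be placed.

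**Figure D3:**
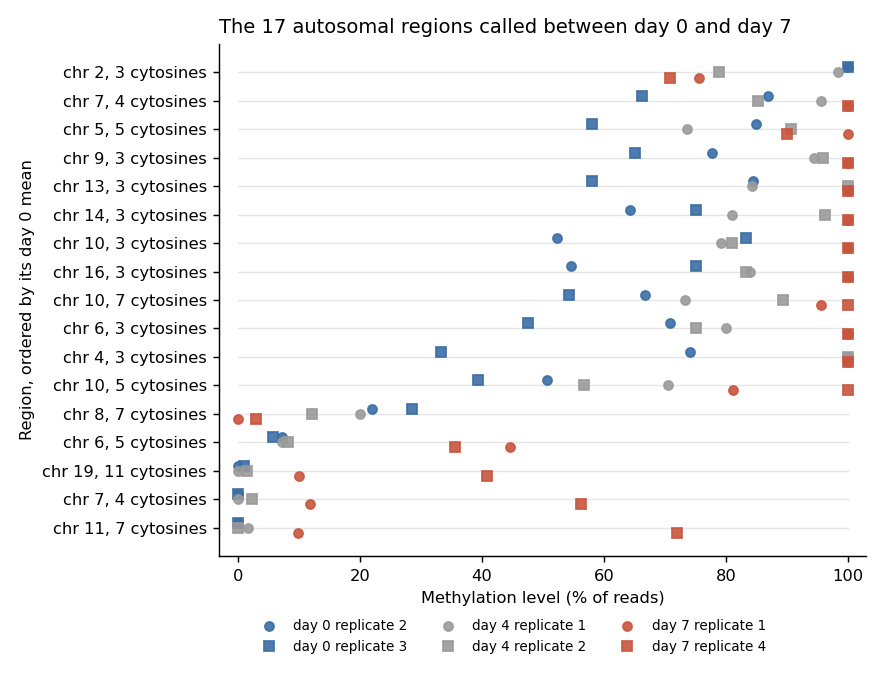
Methylation level (percent of reads, horizontal axis) in each of the 6 samples for the 17 called regions, ordered by their day 0 mean, with chromosome and number of cytosines. The 11 rises from 20% or more end at 81.1% or more in each day 7 sample, 8 of them at 100% in both. The 4 rises from low levels show day 7 samples far apart in all but the region on chromosome 6.

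The other 4 rises started below 20%, and in 3 of them the 2 day 7 samples were far apart. At chr11:5906305-5906465 (7 cytosines) no methylated read was seen in 126 and 84 reads at day 0. With the counts at its cytosines taken as independent, this allows levels of up to 2.38% and 3.57%. Day 7 replicate 1 was at 9.90% (10 of 101 reads) and day 7 replicate 4 at 72.0% (18 of 25), and the edgeR adjusted p of 3.9e-06 was the smallest of all regions. All 7 cytosines carried methylated reads in both day 7 samples, while the day 4 samples were at 1.68% and 0%. Without day 7 replicate 4 the difference fell to 9.90 points and the edgeR adjusted p was 0.0557.

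The same shape was seen at chr7:133616210-133616291 (4 cytosines), with 0% in both day 0 samples (0 of 56 and 0 of 32 reads, allowing up to 5.36% and 9.38%). Its day 7 levels were 11.9% and 56.3%, the latter 9 of 16 reads, with an edgeR adjusted p of 0.0159. It lay between the starts of Atxn2l (29.7 kb), whose product is a relative of the RNA-binding protein ataxin-2, and Rabep2 (44.0 kb), a Rab effector gene of endosomal traffic, again the nearest starts that could be placed. Without day 7 replicate 4 its difference was 11.9 points and the edgeR adjusted p 0.124.
At chr19:11166934-11166987, an 11-cytosine run, day 0 levels of 0% (0 of 154 reads, allowing up to 1.95%) and 1.06% compared with 10.1% and 40.9% at day 7, the latter from 22 reads (edgeR adjusted p 0.00295). Without day 7 replicate 4 the difference was 9.56 points and the edgeR adjusted p 0.0841.

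The region on chromosome 6, chr6:3151209-3151245, had close day 7 samples but a changed depth. Its 5 cytosines had levels of 7.21% and 5.83% in marrow, and of 44.6% and 35.6% after 7 days, with day 4 samples still at 7.18% and 8.16% (edgeR adjusted p 0.000876). The day 0 values rested on 2620 and 2212 reads and the day 7 values on 65 and 132. This is 0.0899 of the day 0 depth after scaling each sample to its median reads per region. A change of relative depth by more than 4 times occurred in 0.153% of tested regions and in 1 of the 17 called. Without the 0.1% deepest cytosines 16 of the 17 regions were called. This region was left out of that fit along with those cytosines, so it was not tested there. In the run formed by gaps of up to 200 bp, the difference here was 14.6 points (edgeR adjusted p 0.223). The part of depth in this rise was not tested.

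**Figure D4:**
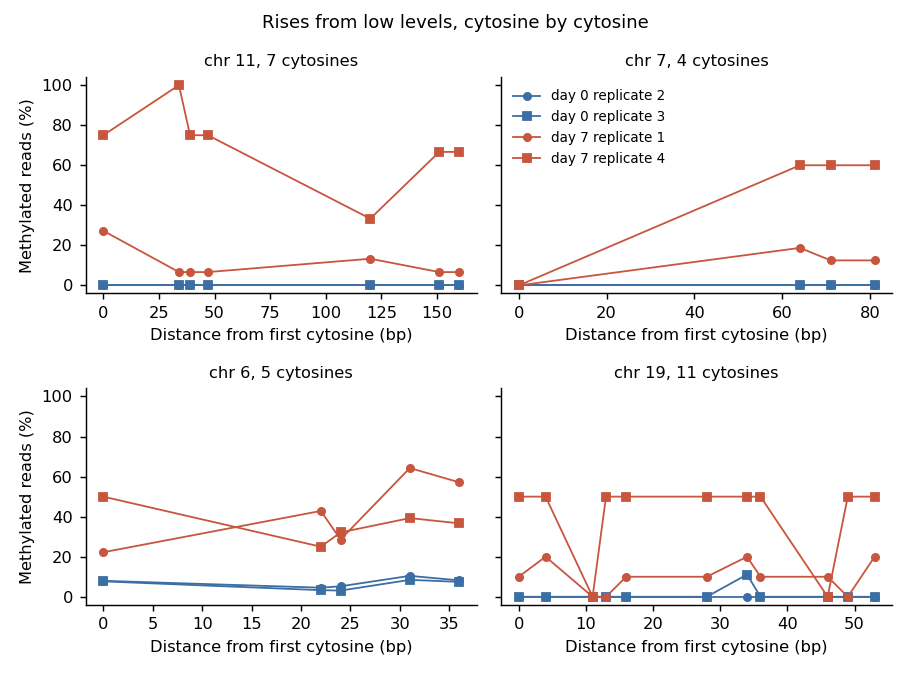
Percent of methylated reads at each cytosine (vertical axis) against distance from the first cytosine (bp) in the 4 called regions that rose from below 20%. Both day 7 samples lie above day 0 at most cytosines, and day 7 replicate 4 lies far above replicate 1 in the regions on chromosomes 11, 7 and 19.

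Only 2 regions fell past the threshold. At chr8:74743809-74743941 (7 cytosines) the levels were 22.0% and 28.6% in marrow and 0% and 2.94% after 7 days, the day 4 samples lying between at 20.0% and 12.2%, with 0 of 56 reads in day 7 replicate 1 allowing up to 5.36% (edgeR adjusted p 0.0416). All 7 cytosines were lower at day 7, by 13.3 to 29.7 points. The nearest start that could be placed was that of Klf2, a zinc finger transcription factor gene, 99.1 kb away. At chr2:111023467-111023490 (3 cytosines) both day 0 samples were at 100% (33 of 33 and 36 of 36 reads), while day 7 samples were at 75.5% and 70.8% (edgeR adjusted p 0.0294). Of the day 4 samples, replicate 1 at 98.4% resembled day 0 and replicate 2 at 78.8% resembled day 7.

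A further 8 regions had an adjusted p below 0.05 with differences under 20 points, all upwards and all from below 1%. The longest 2 were low but even between the day 7 samples. At chr1:9535882-9536219, with 28 cytosines, 1 of 504 and 0 of 402 reads were methylated at day 0, against 26 of 559 (4.65%) and 8 of 118 (6.78%) at day 7, with an edgeR adjusted p of 0.00195. At the Pou2f1 promoter, chr1:167932948-167933564, 51 cytosines gave 0 of 789 and 2 of 662 methylated reads at day 0, against 16 of 674 (2.37%) and 13 of 508 (2.56%) at day 7, with an edgeR adjusted p of 0.0401. Its day 4 samples were at 0.738% and 0.359%, and 21 of its 51 cytosines were higher at day 7.
In 4 of the 8, day 7 replicate 4 had no methylated read, so the difference came from replicate 1 alone. One of these, chr5:28791213-28791268, was at 0% in 107 and 45 reads at day 0 (up to 2.80% and 6.67% allowed), 22.2% in day 7 replicate 1 and 0% in 27 reads of day 7 replicate 4 (up to 11.1% allowed), with an edgeR adjusted p of 0.0356.

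By the classes of the day 0 mean, the called rises numbered 3 below 5%, 1 at 5 to 20%, 1 at 20 to 50%, 10 at 50 to 80% and 0 above that. The fall on chromosome 8 started in the class of 20 to 50% and that on chromosome 2 in the class of 95% or more. From lowest to highest, the classes held 35.5%, 5.87%, 5.05%, 22.3%, 29.2% and 2.15% of tested regions. Over all tested regions, 0.0309% were called. At an unadjusted p below 0.05, 18.5% of regions below 5% were higher and 0.230% lower, and in the class of 95% or more 0.507% were higher and 18.7% lower. These counts use the same day 0 values for the class and the change, which pushes low classes up and high classes down, so they are given as a description.

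In each class and direction, the deep region (at least 50 reads in each sample, groups not overlapping) with the smallest unadjusted p was also followed. Outside the regions already described, none of these reached an adjusted p below 0.05. The closest was chr8:120122551-120122703 (9 cytosines), with 85.7% and 83.7% at day 0 and 98.2% and 100% at day 7 (edgeR adjusted p 0.0584). The day 4 samples, at 88.1% and 77.2%, lay on both sides of day 0.
At chr8:122109954-122110141 (15 cytosines), between the starts of Adad2 (26.6 kb) and Mbtps1 (27.4 kb), marrow had levels of 20.2% and 9.85%, and the day 7 cultures 1.35% and 2.33%, while day 4 samples were at 0.939% and 0% (edgeR adjusted p 0.0821). Mbtps1 encodes a protease that activates membrane-bound transcription factors. Both day 4 samples were thus already at the day 7 level.
Among highly methylated regions, chr14:79844480-79844622 (6 cytosines), between Kbtbd7 (18.2 kb) and the ETS transcription factor gene Elf1 (36.5 kb), had 95.9% and 94.8% at day 0 and 80.4% and 79.7% at day 7 (edgeR adjusted p 0.164). Among partly methylated ones, chr2:53182750-53182904 (9 cytosines) had 78.9% and 75.2% against 92.5% and 97.7% (edgeR adjusted p 0.126). The other 6 picks had adjusted p-values of 0.127 to 0.609 in the edgeR test.

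The gain in points was larger where CpG sites were sparse. Tested regions were split into quartiles of listed cytosines per 100 bp, at 3.92, 6.22 and 9.65. From the sparsest to the densest quartile the day 0 mean level went down from 61.3% to 35.3%, and the difference between day 7 and day 0 was 3.79, 2.5, 1.95 and 1.57 points. In the sparsest quartile the samples were at 62.6% and 59.99% at day 0 and 65.6% and 64.6% at day 7. In the densest they were at 35.7% and 34.9% against 37.3% and 36.4%, so the groups did not overlap at either end. Without day 0 replicate 3 the difference in the sparsest quartile was 2.48 points. Called regions numbered 2 in the sparsest quartile and 8 in the densest, but 6 and 1 when density was taken as listed cytosines in a fixed window around the region's middle, so their order by density turned with the measure.

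Within classes of starting level the order by density was kept in the classes from 50% upwards. In the class of 50 to 80% the difference was 4.95 points in the sparsest quartile and 2.88 in the densest, and in the class of 80 to 95% it was 3.46 and 1.55. Below 5% the quartiles ran from 1.65 (sparsest) through 1.34 and 1.22 to 1.26 points (densest), and in the class of 5 to 20% the 2 ends had 2.49 and 2.5 points. The day 0 baselines in the densest quartile of the class of 50 to 80% had an SD of 3.88 points, wider than the gap between its quartiles. Differences between quartiles were not tested.

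**Figure D5:**
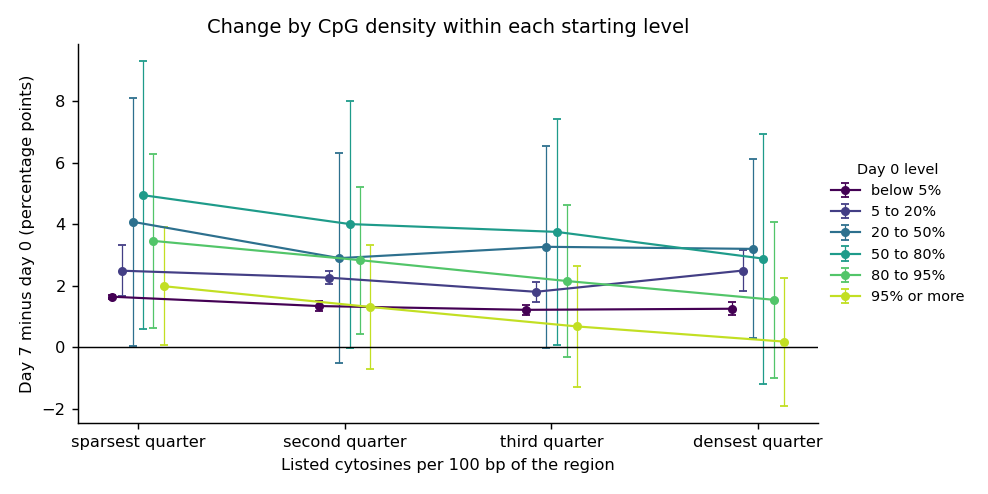
Difference in mean level between day 7 and day 0 (percentage points, vertical axis) by quartile of CpG density (horizontal axis) for 6 classes of day 0 level; bars are the root of the summed squares of the day 0 and day 7 SDs (n = 2 each). Differences decline with density in the classes from 50% upwards and stay between 1.22 and 1.65 points in the class below 5%.

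Promoters of CpG-rich genes stayed low at both times. Of the tested regions, 5064 (9.20%) lay at a promoter that could be placed, covering 4888 genes, and 92.1% of these were below 5% at day 0. Their mean level was 3.81% and 3.96% in marrow and 5.32% and 5.07% after 7 days, a difference of 1.31 points, with day 4 samples at 4.11% and 3.88%. None of the 5064 was called, against 17 of the 49992 elsewhere, and Pou2f1 was the 1 with an adjusted p below 0.05. At an unadjusted p below 0.05, 20.1% of promoter regions were higher (1017) and 0.296% lower (15), against 9.99% and 1.27% elsewhere. Among regions that started below 5%, 21.3% at promoters and 17.6% elsewhere were higher. Below 5% at the start, sorted both ways as above, promoter regions gained 1.19 points and other regions 1.33 points. Placing favours promoters with many listed CpG sites. By the rate found on other chromosomes, 30 of 3228 placements in the main step would be false. That rate was taken before 3175 of them were kept by their spacing to a placed neighbour. It does not cover the 2842 promoters added in a further step, for which no such rate was taken.

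Promoters of genes that mark the cell types of marrow and of this culture were followed where they could be placed. For dendritic cells, 6 of 19 genes had 8 regions, with 0 at an adjusted p below 0.05, 7 higher and 1 lower, and a median difference of 1.23 points against 1.09 over all regions below 5% and 1.54 over all tested. Their levels ranged from 0% to 2.49% in day 0 means and from 1.35% to 3.33% in day 7 means. Over 30 cytosines of Batf3, marrow had 1.09% and 1.81% and the day 7 cultures 2.61% and 0.833% (edgeR adjusted p 0.808). Flt3, the receptor of the cytokine in the medium, was at 0.926% and 0% against 0% and 2.70%. Irf4 and Id2, transcription factor genes of dendritic cell subsets, had day 7 means of 3.04% and 3.33%, the latter from 15 reads in day 7 replicate 4. The unadjusted p was below 0.05 at 2 regions, of Nfil3 (0.239% and 0% to 1.21% and 2.17%) and of Cbfa2t3 (0.304% and 0.389% to 2.59% and 1.41%), with edgeR adjusted p of 0.324 and 0.325. All 8 regions started below 5%, where 18.5% of all regions were higher at this unadjusted p.

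For stem and progenitor genes, 4 of 10 had 5 regions, all higher at day 7 and 0 with an adjusted p below 0.05. Over all tested regions, 38261 of 55056 were higher. At Runx1, a transcription factor of blood stem cells, the region of 14 cytosines was at 0% and 1.15% at day 0 and 0.498% and 6.90% at day 7. Gata2 and Tal1 were at 0% in both day 0 samples and in day 7 replicate 4, so their differences could only be upwards and came from day 7 replicate 1 alone. For B cells only Ebf1, a B lineage transcription factor, was placed; its 2 regions were at 7.14% and 2.78% against 3.13% and 16.7%, and at 9.80% and 16.1% against 13.0% and 28.6%. For T cells, Tcf7 and Bcl11b had 4 regions, 2 higher and 2 lower. The highest marker level was in Tcf7, with 26.5% and 32.4% at day 0 and 23.1% and 22.6% at day 7 (edgeR adjusted p 0.778). No erythroid gene (of 6) and no granulocyte gene (of 7) had a placed promoter with a tested region, so those cells could not be followed in this way.

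Of 8 genes of the methylation machinery, 4 had a region at a placed promoter. Dnmt1, the maintenance methyltransferase, was at 0.966% and 0.625% at day 0 and 0% in both day 7 samples (66 and 93 reads). Uhrf1, which brings Dnmt1 to newly copied DNA, was at 0.442% and 0% against 0.971% and 0.704%. Tet2 was at 0% and 1.45% against 0% and 4.17%. The Tet1 region of 9 cytosines went from 4.05% and 1.06% to 7.64% and 18.2%, the last from 22 reads, with day 4 samples at 4.58% and 8.33%. Its difference of 10.4 points had an unadjusted p of 0.0226 and an edgeR adjusted p of 0.331, so it did not pass.

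The average gain was spread over the genome, whereas the calls were scattered. The mean difference was positive on 19 of 19 chromosomes, from 2.03 points on chromosome 7 to 2.69 on chromosome 16. It was also positive in 250 of 250 windows of 10 Mb with at least 50 regions, from 0.776 points in the window of chromosome 11 that starts at 120 Mb to 4.54 points in the window of chromosome 4 that starts at 70 Mb. Called regions lay on 13 chromosomes, with at least 1997 kb between any 2 on the same chromosome. Within 10 kb of the 17 lay 12 other tested regions, of which 9 were higher and 3 lower at day 7. Over all tested regions, 38261 of 55056 were higher. Beside the fall on chromosome 2, the 1 neighbour was 21.7 points lower, and beside the rise at chr13:58102704-58102726 the neighbour was 11.8 points higher, with unadjusted p of 0.0141 and 0.00266.

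Single cytosines could be tested where each of the 4 samples had at least 10 reads, which held for 17260, of which 11953 had reads of both kinds. The edgeR test called 9 (0.0753%), with 7 higher (0.0586%) and 2 lower (0.0167%) at day 7. Of the 7 rises, 4 were cytosines of the called region on chromosome 6 described above. At an unadjusted p below 0.05 there were 747 higher and 100 lower. Calls numbered 1 without day 0 replicate 2, 2 without day 0 replicate 3, 59 without day 7 replicate 1 and 9 without day 7 replicate 4.
The 2 falls were far larger than those of their regions. At chr11:3050783 the level was 87.5% in both day 0 samples (24 and 16 reads), 90.9% and 92.3% at day 4, and 5.24% and 7.69% at day 7 (267 and 65 reads), with an edgeR adjusted p of 6.13e-15. Its region of 9 cytosines was at 91.1% and 93.4% against 73.0% and 72.2%, with an edgeR adjusted p of 0.127. That region was read 10.0 times as deeply at day 7 as at day 0, after scaling to median reads per region. Without the 0.1% deepest cytosines its difference went from -19.7 to -11.0 points (edgeR adjusted p 0.617). At chr18:3005504 the levels were 59.3% and 23.5% at day 0 and 5.11% and 5.26% at day 7, where reads rose from 27 and 17 to 313 and 114. The part of this change in depth was not tested.
Among the rises outside chromosome 6, chr17:39983008 and chr17:39985217 were at 3.13% to 5.26% in all day 0 samples. They were at 30.6% to 50% at day 7, within 1 region whose own adjusted p was 0.609 in the edgeR test. At the first, reads went from 152 and 95 at day 0 to 12 and 24 at day 7. At the second they went from 64 and 31 to 36 and 72. The part of depth in these rises was not tested. At chr1:174206317 both day 7 samples were at 100% (15 and 12 reads) against 60% and 50% in marrow, with 87.5% and 73.3% at day 4, with an edgeR adjusted p of 0.0263. It thus had the form of the called rises from partial methylation.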

How the data were processed

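Methylated and unmethylated reads were analysed in 4 mouse samples, 2 at day 0 and 2 at day 7, with the 2 day 4 samples as values only. Per the labels' protocols, DNA was cut with MspI or TaqI, adapter-ligated, bisulfite-converted and amplified. Per the submitters' processing notes, Bismark and Bowtie2 were used on mm9; tool versions, read trimming and duplicate removal were not given in the sources used here. Deposited values are raw read counts per cytosine, methylated and unmethylated, and the authors' methylated fraction, which is methylated over all reads. The authors kept cytosines by a coverage of 10 per group, per the file headers and values. No molecular identifiers are named, so exact binomial intervals (95%) and limits for a count of 0 (3 reads over the total) cover counting error only. For regions they also take counts at cytosines of the same read as independent, which they are not.

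Region counts were sums over cytosines, so a read that covers several cytosines is counted at each. A region's level is methylated over all reads counted in this way. Tests used edgeR 4.0.16 in R 4.3.3: a negative binomial model with a term per sample and a methylation term per group, dispersion without trend, likelihood ratio test, Benjamini-Hochberg over all autosomal regions (or cytosines) tested. The 4 samples alone entered the fit. The code was tested on simulated counts. Alternatives were a quasi-likelihood test, limma 3.58.1 (pseudocount 0.5), Fisher's exact test, other read, gap and size limits, and each sample left out. Within groups, the chi-square per degree of freedom against independent counts was 2.15 at day 0 (26314 regions) and 3.25 at day 7 (9061 regions). Only regions with expected counts of at least 5 entered, so the 2 sets differ. Counts at cytosines of the same read may also raise this value. Replicates were counted separately.

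Promoters were placed where at least 8 listed cytosines all fell on CpG sites of 1 RefSeq sequence of that chromosome. Of 3228 such placements, the 3175 with the same spacing to a placed neighbour as in RefSeq's build were kept. A further step, chosen after the data were seen, placed neighbours from at least 3 listed cytosines at the kept spacing, for 6017 promoters of 5449 genes in all. Genes not placed may lie nearer to a region than those named, and exons and introns were not determined. Named regions were all called regions and, per starting class and direction, the region with the smallest unadjusted p among those with 50 or more reads in each sample and groups apart; others were chosen after their values were seen. The members, gene lists and rules were chosen with earlier results of these data known.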

Additional observations from a re-analysis of the deposited data

Results flagged for a closer look

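Signals above the day 0 samples appeared in data outside the autosomal comparison. The 890 X chromosome regions that met the same limits had a mean level of 45.4% and 44.2% at day 0 and of 56.3% and 55.7% in day 7 replicates 1 and 4, a wider gap than on the autosomes. Reads per X cytosine relative to autosomes were 0.667 and 0.650 at day 0 and 1.01 and 1.07 at day 7 in the same libraries. Mitochondrial cytosines had 2.27% methylated reads in day 7 replicate 1 (exact interval 1.71% to 2.96%) and 1.76% in day 7 replicate 4 (1.48% to 2.08%), against 0.547% (0.292% to 0.934%) and 0.490% (0.212% to 0.963%) at day 0.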

How the results depend on the processing

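No paired analysis was possible because the day 0 samples carry replicate numbers 2 and 3 and the day 7 samples 1 and 4, so the groups share none. The count of called regions depended strongly on the test: against 17 (15 higher, 2 lower), the edgeR quasi-likelihood test called 2 (2 higher, 0 lower), limma 0 (0 higher, 0 lower) with 6253 regions at an unadjusted p below 0.05, and pooled reads under Fisher's exact test 529 (451 higher, 78 lower). No minimum difference gave 23 higher regions, and a minimum of 30 points 10 in all with 0 lower. Limits on reads, gaps and size also changed how many regions were tested, against 55056 in the main setting. A minimum of 20 reads gave 11 of 31854 tested (9 higher), and at least 1 read 11 of 65814 (1 lower). Only cytosines with 10 or more reads gave 2 of 1922 (2 higher, 0 lower). A gap of 50 bp gave 11 of 54463 (9 higher), and a gap of 200 bp 19 of 64544 (1 lower). With 5 or more cytosines the count was 8 of 28803 (7 higher, 1 lower). Leaving out each sample in turn gave 5 to 40 called regions, 4 to 23 higher and 0 to 17 lower. For single cytosines, against 9, limma called 5, Fisher's exact test 34 and a minimum of 20 reads 2, and leaving out each sample 1 to 59. The difference of regions at 95% or more reversed to -5.51 points when sorted by the mean of both day 0 samples, and ran from -0.336 without day 7 replicate 1 to 1.92 without day 7 replicate 4. The other class, density, chromosome and mean-level differences stayed positive under the alternatives run, but some moved by over 1.5 times. Sorted by the day 0 mean, the class of 50 to 80% went from 4.25 to 6.65 points and that of 80 to 95% from 2.61 to 0.720. Without day 7 replicate 1 the latter was 1.69, and without day 0 replicate 3 the sparsest quartile went from 3.79 to 2.48. Weighted by reads, the mean level also moved, and was 30.9% at day 0 and 37.0% ± 3.54 at day 7 (SD, n = 2), a difference of 6.13 points. Results for single named regions covered the 17 called regions and the picks by class that were not called, over all settings. Of these results, 345 kept their side of the threshold, 110 lost the call and 3 gained it. The 345 include picks that stayed uncalled and had no call to lose, so the share lost among the called regions alone was higher. Day 7 replicate 4 had the lowest depth, and the cause of these changes was not tested.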
